A study of Mus musculus with 6 samples.

Results

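Transcripts of 10 genes of bone and cartilage formation and of arterial calcification (Runx2, Sox9, Bglap, Alpl, Msx2, Sp7, Comp, Ibsp, Chad and Mgp) were examined in the aortic arch. They were taken as every probe that is no control spot and that the array files name after 1 of these genes, which gave 14 of the 55681 probes and 10 of the 34821 names on the array. RNA from 6 arches was hybridised to a 1-colour Agilent mouse array, 1 arch per array. The BM Mir21 KO group held 3 mice that carried bone marrow from Mir21–/– donors, and the BM Mir21 WT group held 3 mice that carried bone marrow from Mir21+/+ donors. All recipients were female Mir21+/+ mice of strain C57BL/6 that had received whole-body X-rays as 2 doses of 5 Gy inside 4 h and donor marrow the next day, and that ate a high-fat diet for 12 weeks, beginning 3 weeks after the X-rays. The age of the mice is not stated in the labels. Because the recipients were Mir21+/+, cells of the vessel wall that do not derive from marrow kept the gene in both groups. The groups are called KO-marrow and WT-marrow arches here, and the question was whether the loss of miR-21 from marrow-derived cells went with a different level of these transcripts. The array carried 0 probes named Mir21 or Mir21a, so the deletion itself was not checked on these arrays.

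Calcification of an artery is an active process in which smooth muscle cells can take on features of bone and cartilage cells. Runx2 and Sp7 are transcription factors of the bone-forming osteoblast, Sox9 is the main transcription factor of the cartilage-forming chondrocyte, and Msx2 is a homeobox factor that responds to bone morphogenetic proteins. Alpl, tissue-nonspecific alkaline phosphatase, breaks down pyrophosphate, which otherwise blocks mineral growth. Ibsp (bone sialoprotein) and Bglap (osteocalcin) are proteins of mineralised bone matrix, Comp and Chad are proteins of cartilage and tendon matrix, and Mgp (matrix Gla protein) is an inhibitor of mineral growth that smooth muscle cells make in large amounts. Mice without Mgp calcify their arteries.

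The probes are short, and for Runx2 and Bglap the transcript that a probe reports depends on where it lies, so the sequences that set this are shown as the array files give them, 5′ to 3′, with mm9 coordinates. Of the Runx2 probes, A_52_P55876 at chr17:44951128-44951187 (minus strand) crosses the start codon of the protein form made from the distal promoter, and the capitals run from that ATG. A_52_P460545 at chr17:44744925-44744984 (minus strand) is listed for 4 RefSeq transcripts and was the Runx2 probe bright enough to be tested. Bglap probe A_55_P2106800 at chr3:88188307-88188366 (minus strand) crosses a start codon too, and its capitals run from that ATG. The Comp probe A_51_P409010 at chr8:72905692-72905825 (plus strand) is shown because its 60 bases are spread over 134 bases of genome, so that it is split by a gap.
Runx2 A_52_P55876: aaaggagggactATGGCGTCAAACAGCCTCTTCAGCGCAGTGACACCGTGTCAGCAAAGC
Runx2 A_52_P460545: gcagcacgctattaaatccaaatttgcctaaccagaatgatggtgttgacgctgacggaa
Bglap A_55_P2106800: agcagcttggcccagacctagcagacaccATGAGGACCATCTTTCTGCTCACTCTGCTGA
Comp A_51_P409010: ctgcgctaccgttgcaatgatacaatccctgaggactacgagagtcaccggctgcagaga

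Bglap lies in a cluster with the near copies Bglap2 and Bglap3, and a probe for one can pick up another. The array files themselves list a transcript of Bglap for Bglap2 probe A_55_P2106803 and for Bglap3 probe A_55_P2106801. Bglap2 probe A_55_P2106803 (chr3:88181822-88181881) and Bglap3 probe A_55_P2086507 (chr3:88172673-88172732) share a stretch of 25 aligned bases, shown in capitals, of which 23 are equal and 2 are not.
Bglap2 A_55_P2106803: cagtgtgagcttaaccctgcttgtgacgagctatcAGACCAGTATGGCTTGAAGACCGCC
Bglap3 A_55_P2086507: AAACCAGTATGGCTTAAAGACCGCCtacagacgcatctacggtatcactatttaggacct

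Osteocalcin is the textbook target of Runx2, and its promoter is shown for that reason from the RefSeq table for GRCm38.p6. The 250 bases before the start of Bglap (chr3:88384467-88384716, minus strand) hold 1 copy of ACCACA, the core that Runx factors bind, in capitals, 132 to 127 bases before the start. The letters ACCACA or, on the other strand, TGTGGT occur in 14.05% of the 32851 promoter windows of that length in the table. Among the 6 of the 10 genes whose promoters the table holds, the windows of Runx2 and Bglap contain them. Binding was not measured here.
Bglap promoter: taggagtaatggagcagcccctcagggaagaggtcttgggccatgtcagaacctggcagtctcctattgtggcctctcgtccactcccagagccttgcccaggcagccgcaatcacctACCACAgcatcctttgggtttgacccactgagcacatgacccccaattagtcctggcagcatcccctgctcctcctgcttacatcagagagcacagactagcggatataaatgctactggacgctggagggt

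Values below are log2 levels, that is log2 of the background-subtracted signal minus the array's 75th percentile of it, and differences are KO-marrow minus WT-marrow on that scale. A level says nothing about one probe against another, because probes bind with different strength. The arrays had 66.4% to 74.4% of spots well above background and 0 saturated spots, and the 75th percentile of signal ran from 238.9 to 407. The KO-marrow arrays lay in 1 row of the slide and the WT-marrow arrays in another, so row and group cannot be told apart. A probe was tested if 1 group or both had it well above background on each of 3 arrays, which 12 of the 14 probes met, and these cover all 10 genes. In whole arch tissue, fewer cells of a type and less RNA per cell cannot be told apart.

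No gene of the 10 passed the test: 0 of 10 had an adjusted p below 0.05 in limma, against 1 of the 38341 probes tested on the array (0.00261%), which was lower in KO-marrow arches, while 0% were called higher. By the brightest tested probe of each gene, 7 differences lay above 0 and 3 below, with a median of 0.06 against 0.02 over all tested probes. The range ran from -0.28 for Sox9 to 0.48 for Runx2, whereas the range from the 5th to the 95th percentile of all tested probes was -0.65 to 0.51. Sp7 alone had an unadjusted p below 0.05, which is 1 of 10 genes against 8.71% of all tested probes (4.44% higher and 4.27% lower). Sp7 was also the 1 gene of 10 whose groups did not overlap, against 13.7% of all tested probes (7.58% with KO-marrow higher and 6.14% with it lower). With 3 arches against 3, the exact permutation test cannot give a p below 0.1.

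**Figure D1:**
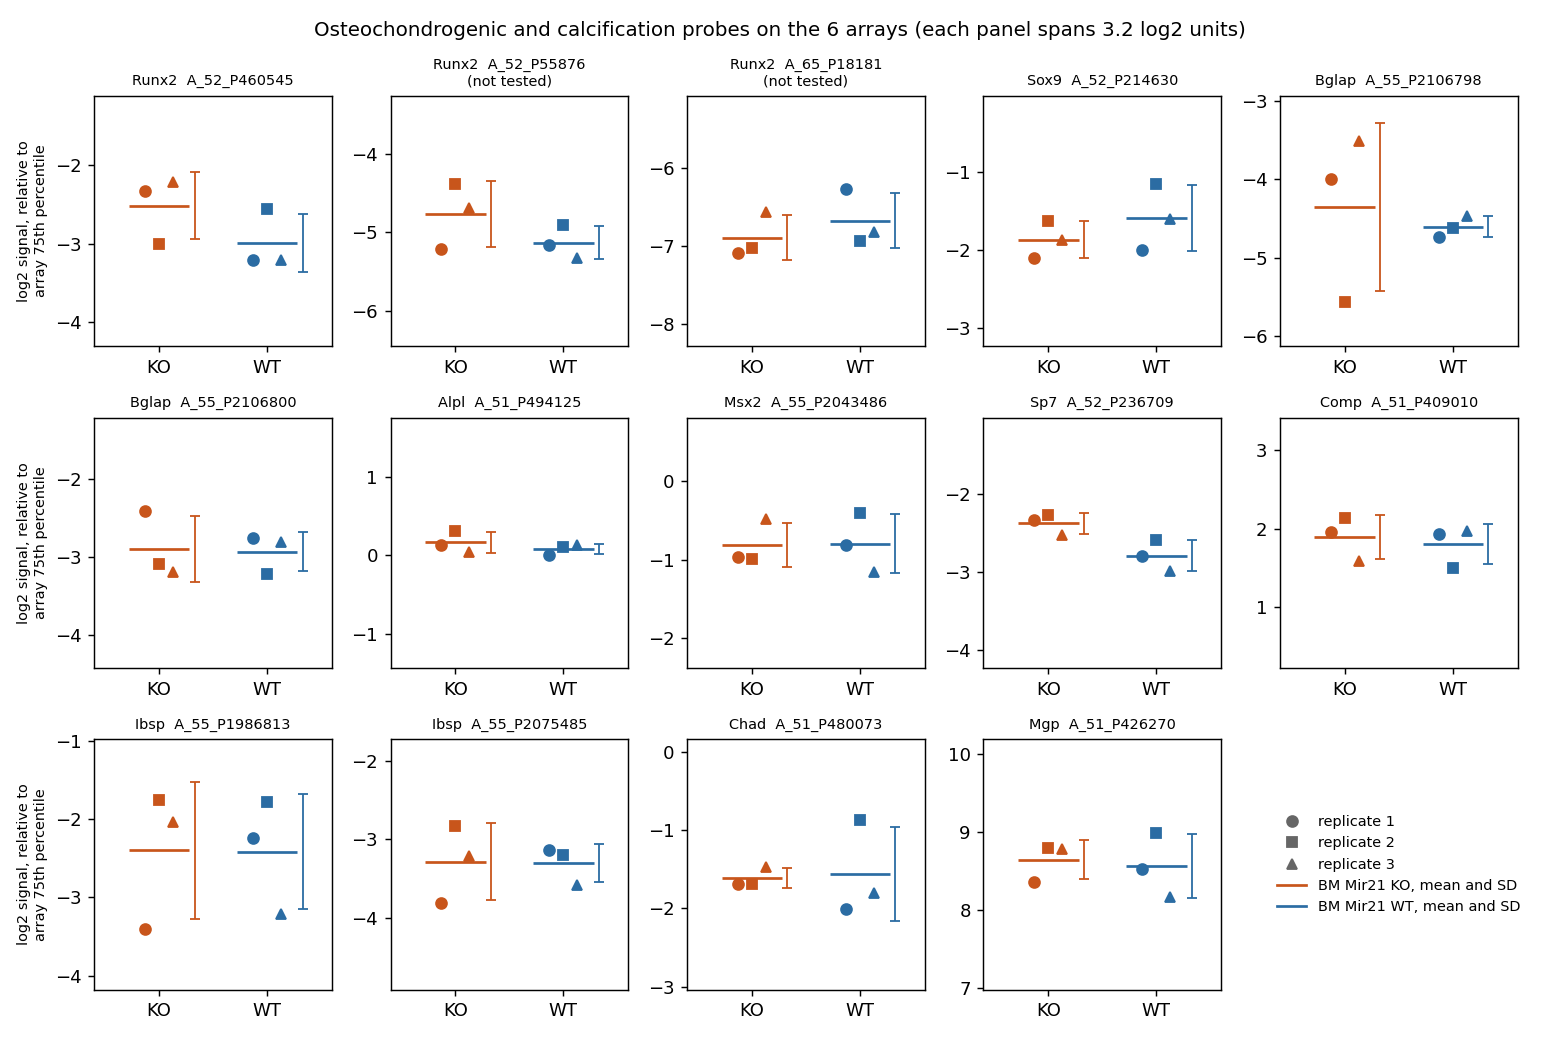
Log2 signal relative to the array's 75th percentile (vertical axis) of the 14 probes in KO-marrow arches (left in each panel) and WT-marrow arches (right). Points are single arrays, with a marker shape per replicate, horizontal lines are group means and bars are 1 SD either way; every panel spans the same number of log2 units. The groups separate only at the Sp7 probe.

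Of the transcription factors, Runx2 and Sp7 had the largest differences above 0 among the 10 genes, and neither passed the adjusted test. Sp7 (osterix), which acts downstream of Runx2 and is needed for osteoblasts to form, was read by probe A_52_P236709 at chr15:102187692-102187751. Its log2 level was -2.34, -2.27 and -2.53 in KO-marrow arches, against -2.80, -2.60 and -2.99 in WT-marrow arches. All 3 KO-marrow values lay above all 3 WT-marrow values. The group means were -2.38 ± 0.13 and -2.79 ± 0.20 (SD, n = 3 each), a difference of 0.41 ± 0.17 (SE) or 1.33-fold, with a 95% interval from 0.01 to 0.81. The unadjusted p in limma was 0.0446 and the adjusted p 0.57, and the two-sided exact permutation p was 0.1, the smallest the design allows. Before the scaling to the 75th percentile the groups overlapped, at processed signals of 65.1, 79.9 and 41.4 in KO-marrow arches and 57.8, 56.2 and 51.4 in WT-marrow arches.

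Runx2, which directs cells to the osteoblast fate, had log2 levels of -2.33, -3.01 and -2.21 in KO-marrow arches at probe A_52_P460545, against -3.21, -2.56 and -3.21 in WT-marrow arches. The groups overlapped, because KO replicate 2 lay below WT replicate 2. The means were -2.52 ± 0.43 and -3.00 ± 0.37 (SD, n = 3 each), and the difference of 0.48 ± 0.28 (SE) did not pass (limma, adjusted p = 0.66), with a 95% interval from -0.17 to 1.13. The probe for the form from the distal promoter, A_52_P55876, was at the edge of detection. It had log2 levels of -5.21, -4.38 and -4.68 in KO-marrow arches, against -5.15, -4.90 and -5.33 in WT-marrow arches, and was well above background on KO replicate 2 alone. It was not tested, and with most arrays of both groups below detection it gave no fold. The third Runx2 probe, A_65_P18181, which the files list for a transcript with a non-coding accession, was not well above background on any of the 6 arrays.

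Msx2 lies in the response to bone morphogenetic proteins and has been tied to calcifying arteries. Its probe A_55_P2043486 (chr13:53562318-53562377) had log2 levels of -0.96, -1.0 and -0.49 in KO-marrow arches, against -0.82, -0.41 and -1.17 in WT-marrow arches. Both groups covered nearly the same range, and the difference was -0.02 ± 0.24 (SE; limma, adjusted p = 0.99), with a 95% interval from -0.59 to 0.55.

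Sox9 was measured with the most spots, since probe A_52_P214630 (chr11:112648809-112648868) was printed 10 times on each array. After spots marked as outliers were left out, 10, 10 and 9 spots remained in KO-marrow arches and 8, 9 and 9 in WT-marrow arches. The log2 levels were -2.10, -1.63 and -1.87 in KO-marrow arches, against -2.0, -1.16 and -1.60 in WT-marrow arches. Spots on the same array differed by an SD of 0.20, 0.13 and 0.15 in KO-marrow arches and of 0.10, 0.10 and 0.09 in WT-marrow arches, against an SD between arrays of 0.23 in KO-marrow and 0.42 in WT-marrow arches. Spots on an array thus lay closer together than arrays of a group did, by a wide margin in WT-marrow arches and a narrow one for KO replicate 1. The difference was -0.28 ± 0.25 (SE; limma, adjusted p = 0.77), the lowest of the 10 genes, with a 95% interval from -0.85 to 0.29.

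**Figure D2:**
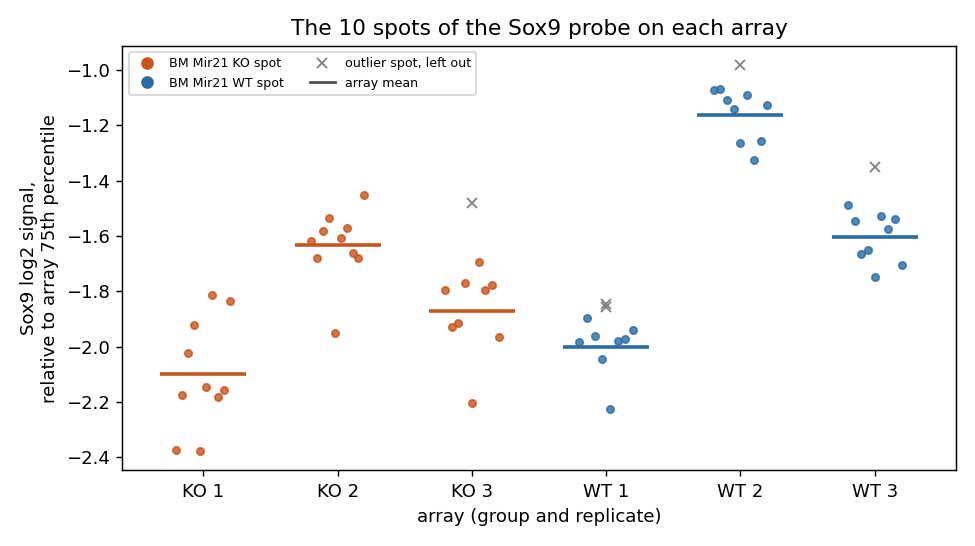
Log2 signal of the 10 Sox9 spots on each array, relative to the array's 75th percentile (vertical axis), with KO-marrow arrays left and WT-marrow arrays right (horizontal axis). Filled points are spots used, crosses are spots marked as outliers and left out, and lines are array means; the arrays lie farther apart than most spots within an array, and the means of the groups overlap.

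Of the genes of bone mineral and matrix, Alpl was the steadiest. Its probe A_51_P494125 (chr4:137297658-137297716) had log2 levels of 0.14, 0.31 and 0.05 in KO-marrow arches, against 0.01, 0.11 and 0.14 in WT-marrow arches. All 6 arrays lay within a narrow band, and the difference was 0.08 ± 0.15 (SE; limma, adjusted p = 0.90). The 95% interval, from -0.27 to 0.44, was the narrowest of the 10 genes.

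Ibsp, which can seed mineral crystals in bone matrix, varied widely between arches of the same group. At the brighter of its probes, A_55_P1986813 (chr5:104740413-104740472), its log2 level was -3.40, -1.75 and -2.04 in KO-marrow arches, against -2.24, -1.78 and -3.22 in WT-marrow arches. Each group thus held arches near both ends of the range. Probe A_55_P2075485 (chr5:104739720-104739779) gave -3.81, -2.83 and -3.22 in KO-marrow arches and -3.14, -3.19 and -3.59 in WT-marrow arches. Both probes were lowest on KO replicate 1, next lowest on WT replicate 3 and highest on KO replicate 2. The differences were 0.01 ± 0.50 and 0.02 ± 0.27 (SE; limma, adjusted p = 0.995 and 0.99), with 95% intervals from -1.16 to 1.19 and from -0.61 to 0.65. Which arches were counted moved the value: without KO replicates 2 and 3, which had the lowest mean of the fat-cell markers, the values were -0.99 and -0.51. That left only KO replicate 1, the arch lowest at both probes, in the KO-marrow group.

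Bglap had log2 levels of -2.42, -3.08 and -3.19 in KO-marrow arches at A_55_P2106800, the probe across the start codon, against -2.76, -3.22 and -2.81 in WT-marrow arches. The groups overlapped and differed by 0.03 ± 0.25 (SE; limma, adjusted p = 0.98), with a 95% interval from -0.55 to 0.61. Probe A_55_P2106798 (chr3:88187792-88187851) gave -4.00, -5.56 and -3.50 in KO-marrow arches, where it was well above background on 2 of 3 arrays, and -4.73, -4.62 and -4.47 in WT-marrow arches. Its SD was 1.07 in KO-marrow and 0.13 in WT-marrow arches, and the difference was 0.25 ± 0.48 (SE; limma, adjusted p = 0.90). The near copies gave 0.11 ± 0.38 for Bglap2 and 0.18 ± 0.27 for the brightest Bglap3 probe, neither past the adjusted test. The level of each single copy is uncertain, since the files list Bglap's own transcript for both of these probes.

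Comp and Chad, the cartilage matrix genes among the 10, had overlapping groups and did not pass the test. Comp, a pentameric protein that links collagen fibres, had log2 levels of 1.96, 2.14 and 1.58 in KO-marrow arches, against 1.94, 1.5 and 1.97 in WT-marrow arches. Its difference was 0.09 ± 0.21 (SE; limma, adjusted p = 0.93), with a 95% interval from -0.41 to 0.59. Chad (chondroadherin, a leucine-rich protein to which chondrocytes attach), read by probe A_51_P480073 at chr11:94430136-94430195, had -1.69, -1.69 and -1.47 in KO-marrow arches, against -2.0, -0.87 and -1.81 in WT-marrow arches. The KO-marrow arches lay within an SD of 0.13 and the WT-marrow arches within an SD of 0.60, which came from WT replicate 2. The difference of Chad was -0.05 ± 0.30 (SE; limma, adjusted p = 0.97), with a 95% interval from -0.74 to 0.64.

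Mgp, the inhibitor, had log2 levels of 8.36, 8.79 and 8.78 in KO-marrow arches at probe A_51_P426270 (chr6:136821125-136821184), against 8.53, 8.99 and 8.17 in WT-marrow arches. The highest and the lowest arch both carried WT marrow. The means were 8.64 ± 0.25 and 8.57 ± 0.41 (SD, n = 3 each), a difference of 0.08 ± 0.25 (SE; limma, adjusted p = 0.95) with a 95% interval from -0.49 to 0.65. No spot was saturated, at processed signals from 105100 to 171500 in KO-marrow arches and from 117700 to 172900 in WT-marrow arches.

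**Figure D3:**
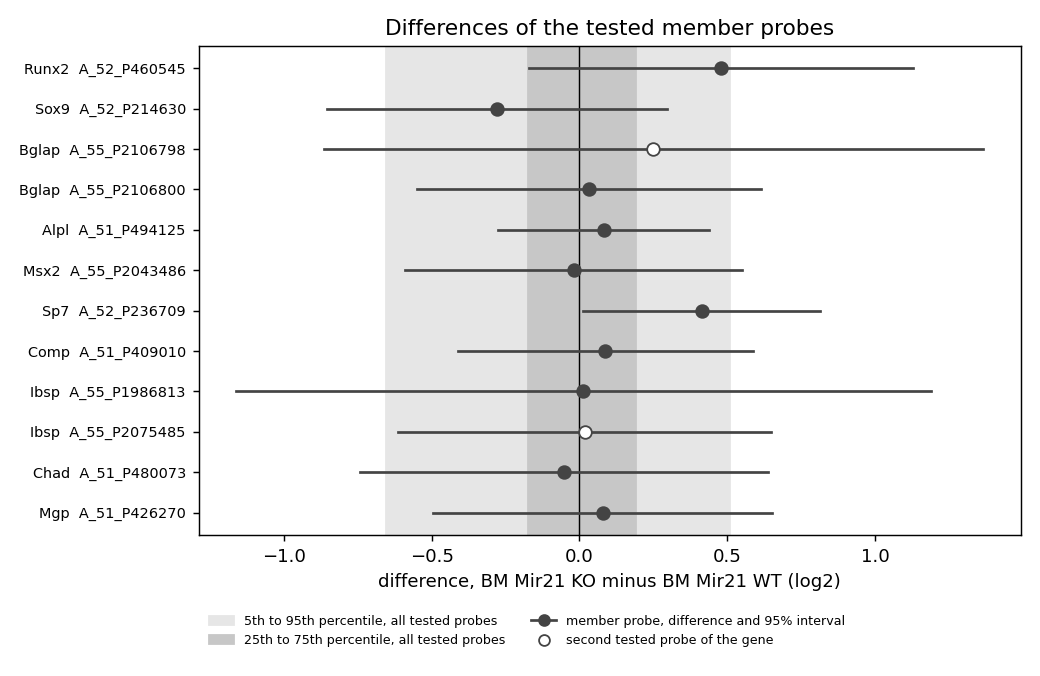
Difference in log2 level, KO-marrow minus WT-marrow (horizontal axis), for the 12 tested probes (one per line), with 95% intervals from limma. Open points are the second tested probe of a gene, and the bands mark percentiles of the differences of all tested probes; every interval except that of Sp7 crosses 0.

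The genes did not share 1 order over the arches. By the brightest tested probe, 4 of the 10 (Alpl, Sp7, Comp and Ibsp) were highest on KO replicate 2, where 14.1% of all tested probes were highest. Another 4 (Sox9, Msx2, Chad and Mgp) were highest on WT replicate 2, where 13.1% of all tested probes were highest. Runx2 was highest on KO replicate 3 and Bglap on KO replicate 1.

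The wider pathway was read through 5 lists of 68 other genes, of which 56 were tested by their brightest probe. Of these, 0 passed the adjusted test. At an unadjusted p below 0.05, 2 were higher (Nog and Grem1) and 3 lower (Dlx5, Acan and Phex) with KO marrow, and the groups did not overlap for 4 higher and 4 lower. These 5 and 8 of 56 genes lie near the shares over all tested probes, 8.71% at that p and 13.7% without overlap, so the counts do not set the lists apart from the rest of the array. Their median difference was 0.03.

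Among cartilage and bone transcription factors, 11 of 12 were tested and the median was 0.05. Dlx5, a homeobox factor upstream of Runx2 and Sp7 in bone, had log2 levels of -1.17, -1.57 and -1.36 in KO-marrow arches, against -0.61, -0.55 and -0.77 in WT-marrow arches. Every KO-marrow arch lay below every WT-marrow arch, as for 6.14% of all tested probes. Runx2 and Sp7 had positive differences, and neither they nor Dlx5 passed the adjusted test. The difference of Dlx5 was -0.72 ± 0.17 (SE), with an unadjusted p of 0.00324 and an adjusted p of 0.42 in limma. Sox5 (0.28 ± 0.23) and Sox6 (-0.23 ± 0.52), the partners of Sox9 in cartilage, lay on opposite sides of 0, and a dimmer Sox5 probe gave -0.62 ± 0.36. Msx1 (0.21 ± 0.16) and Twist1 (-0.05 ± 0.22), which restrain bone cell maturation, did not pass either.

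Cartilage matrix genes were the least detected list, with 8 of 16 tested and a median of -0.05. Acan (aggrecan), the large proteoglycan that gives cartilage its swelling pressure and is also made in artery walls, had the smallest p of the 56 genes. Its log2 level was -0.79, -0.48 and -0.52 in KO-marrow arches, against 0.43, 0.80 and 0.27 in WT-marrow arches. The groups lay clear of each other, at -1.09 ± 0.19 (SE; limma, unadjusted p = 0.000632, adjusted p = 0.36), with a 95% interval from -1.55 to -0.64. Col2a1, the main collagen of cartilage, differed by -0.34 ± 0.27, which did not pass. Matn1, Matn3 and Col10a1 were not bright enough to be tested, and Matn3 was at 0.42 on WT replicate 1 and between -7.11 and -6.45 on the other 5 arrays. The chondrocyte marker list had 6 of 10 genes tested, while Matn1, Matn3, Col9a3 and Cnmd were too dim for the test. Its summed signal, relative to the 75th percentile, was 1.27 to 1.43 in KO-marrow arches and 1.94 to 2.48 in WT-marrow arches, and most of that gap was Acan itself, which is part of the sum: without Acan it was 0.688 to 0.710 in KO-marrow arches and 0.732 to 0.763 in WT-marrow arches. Of the other tested markers, Hapln1 differed by -0.42 ± 0.24, Col9a1 (0.38 ± 0.24) and Col11a2 (0.08 ± 0.19) had positive differences and Col9a2 was at -0.03 ± 0.16. The part of cartilage cells in the Acan and Sox9 values was not tested.

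Bone matrix and osteocyte genes had 11 of 12 tested and a median of 0.11. Spp1 (osteopontin), made by bone cells and by macrophages, had log2 levels of -0.33, 4.29 and 0.25 in KO-marrow arches, against 1.75, -1.37 and -1.40 in WT-marrow arches. KO replicate 2 stood far above the other arches, and the difference of 1.74 ± 1.32 (SE) did not pass (limma, adjusted p = 0.73). Macrophage markers were highest on the same arch: averaged over the 6 genes of that list, their deviation from the mean over arrays was 0.07, 1.01 and -0.61 in KO-marrow arches and 0.22, -0.65 and -0.04 in WT-marrow arches. Their part in the Spp1 value was not tested. Col1a1 (0.30 ± 0.24) and Sparc (0.10 ± 0.15) did not pass, and Dmp1, a defining gene of osteocytes, was not well above background on any array. Phex, an endopeptidase of osteoblasts and osteocytes chosen after its value was seen, differed by -0.74 ± 0.28 (limma, adjusted p = 0.54).

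Mineralisation inhibitors and phosphate handling had 13 of 14 genes tested and a median of -0.02, with 0 at an unadjusted p below 0.05 by the brightest probes, against 8.71% of all tested probes. Enpp1, which makes pyrophosphate, differed by -0.09 ± 0.27, and Ank, which exports it from cells, by -0.16 ± 0.16. A dimmer Enpp1 probe gave -0.62 ± 0.35 (limma, adjusted p = 0.65). Tnfrsf11b (osteoprotegerin, a decoy receptor for RANKL) differed by 0.14 ± 0.32, and Gas6, a Gla protein like Mgp, by 0.14 ± 0.17. For the phosphate transporter Slc20a1 the groups did not overlap, at 1.81, 2.11 and 2.06 in KO-marrow arches and 2.16, 2.54 and 2.27 in WT-marrow arches, with a difference of -0.33 ± 0.18 (SE; limma, adjusted p = 0.64). A dimmer Slc20a1 probe gave 0.05 ± 0.25, with overlapping groups. Its relative Slc20a2 differed by 0.20 ± 0.21 at the brightest probe and by 0.55 ± 0.19 at a dimmer one, where the groups did not overlap (limma, unadjusted p = 0.0202, adjusted p = 0.51).

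Among BMP and RANKL signals, 13 of 14 were tested and the median was 0.06. The ligands Bmp2 (0.17 ± 0.31), Bmp4 (-0.01 ± 0.21) and Bmp6 (-0.52 ± 0.28) and the intracellular inhibitor Smad6 (-0.09 ± 0.28) did not pass, and Tnfsf11 (RANKL) was not well above background on any array. The secreted BMP antagonists Nog and Grem1 were picked out after their values were seen. Nog had log2 levels of 1.63, 1.5 and 2.07 in KO-marrow arches, against 1.11, 1.31 and 0.98 in WT-marrow arches. Grem1 had -1.12, -1.50 and -0.84 in KO-marrow arches, against -1.59, -1.94 and -1.94 in WT-marrow arches. Neither pair of groups overlapped, and the differences were 0.60 ± 0.20 and 0.67 ± 0.21 (SE), with adjusted p of 0.51 and 0.50 in limma.

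**Figure D4:**
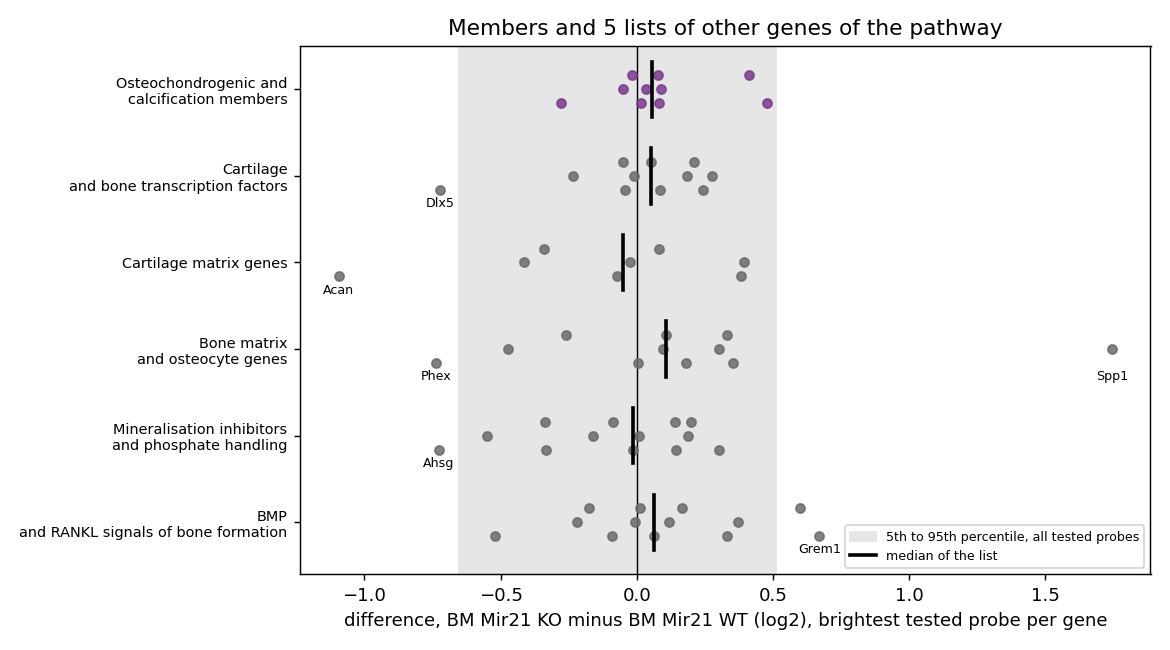
Difference in log2 level, KO-marrow minus WT-marrow (horizontal axis), for the 10 osteochondrogenic and calcification genes (top row) and for the tested genes of 5 other lists of the pathway (rows below), 1 point per gene at its brightest tested probe. Vertical bars are list medians, the band marks percentiles of all tested probes, and genes farthest from 0 are named; medians lie between -0.05 and 0.11, with Acan lowest and Spp1 highest.

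Markers of the arch and of neighbouring tissue were read beside these values. All 6 smooth muscle markers were well above background on every array, with a mean deviation of -0.09, 0.19 and 0.41 in KO-marrow arches and -0.25, -0.03 and -0.24 in WT-marrow arches. The 8 fat-cell markers were above background on every array. Their mean deviation was 1.17, -1.27 and -2.61 in KO-marrow arches and 1.05, 0.33 and 1.31 in WT-marrow arches. Their summed signal relative to the 75th percentile was 85.4 to 1130 in KO-marrow arches and 603 to 1182 in WT-marrow arches. Of the 8, 7 had differences below 0, whereas Lep lay above 0, at 0.60 ± 0.26, and was highest on KO replicate 3. Of the 6 tendon and ligament markers, 2 were tested, and Tnmd was not among them. The summed signal of those 2 was 5.69 to 12.6 in KO-marrow arches and 6.52 to 9.34 in WT-marrow arches. The 6 cardiac muscle markers deviated by 1.77, -1.29 and 1.16 in KO-marrow arches and by -0.85, -0.06 and -0.73 in WT-marrow arches. Markers of immature thymocytes, 3 of 6 above background on every array, deviated by 0.37, -1.14 and -0.22 in KO-marrow arches. In WT-marrow arches they deviated by 0.31, 0.29 and 0.38. The part of these tissues in the values of the 10 genes was not tested, apart from the alternatives with fat-cell markers.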

How the data were processed

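The 6 scanner files were written by Agilent Feature Extraction, version 10.7.3.1 by their headers. The deposited values used are linear intensity after background subtraction by the authors' scanner software, as its parameters in the headers show, with no scaling between arrays. Their series table repeats this intensity to within 0.497% (column medians 32.1 to 54.3). Here log2 was taken, the array's 75th percentile over non-control spots subtracted, outlier spots left out and spots of a probe averaged. Probes that 1 group or both had well above background on each of 3 arrays entered lmFit and eBayes (limma 3.58.1, R 4.3.3, two-sided, Benjamini-Hochberg over all 38341 probes, threshold 0.05; 10 probes were set aside for outlier spots). The fit was tested on simulated data. The 10 genes, the lists, the markers and the genes named from them were chosen with earlier results of these data known; genes named outside that choice are marked. Each list gene is given by its brightest tested probe. The small number of arrays limits precision. They lay on 1 slide and in 1 scan. Exon, intron and untranslated positions of probes were not analysed here. The alternatives covered background correction, normalization, filters, the series table, a replicate block, variance model, array weights, each array left out, KO replicates 2 and 3 left out, a fat-cell covariate and every probe of a gene.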

Additional observations from a re-analysis of the deposited data

How the results depend on the processing

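In every alternative run, 0 of the 10 genes and 0 of the tested pathway genes passed the adjusted test (every probe of a gene was tried for the 10 genes only), and the smallest adjusted p of the 10 genes was 0.19, for Sp7 with array weights. The median difference of the 10 genes ran from -0.01 to 0.23 when each array was left out, and was -0.03 without KO replicates 2 and 3 and -0.06 with the fat-cell marker mean as a covariate. Runx2 (0.33 to 0.72), Sp7 (0.32 to 0.51), Alpl (0.01 to 0.14) and Sox9 (-0.49 to -0.07) kept their sign when each array was left out. The sign turned for the others, over ranges of -0.18 to 0.85 (Bglap A_55_P2106798), -0.21 to 0.18 (Bglap A_55_P2106800), -0.27 to 0.29 (Chad), -0.062 to 0.24 (Comp), -0.39 to 0.52 (Ibsp A_55_P1986813), -0.21 to 0.28 (Ibsp A_55_P2075485), -0.12 to 0.29 (Mgp) and -0.20 to 0.18 (Msx2). It also turned under normexp (Msx2 0.025, Chad 0.030), quantile normalization (Ibsp A_55_P1986813 -0.0095) and array weights (Bglap A_55_P2106798 -0.12, Bglap A_55_P2106800 -0.16, Msx2 0.091, Chad 0.092). Without KO replicates 2 and 3, with the lone KO arch assumed to vary like the WT-marrow arches, Ibsp gave -0.99 (A_55_P1986813) and -0.51 (A_55_P2075485) and Mgp -0.21, and with the fat-cell covariate -0.81, -0.33 and -0.22. None of these values passed the test, and the cause was not tested. Same-numbered arrays deviated from their group means with correlations of 0.12, 0.05 and -0.28, and differently numbered ones with -0.38 to 0.39. These values gave no sign that the numbers pair the samples, but 3 arrays per group are too few to settle it. With a replicate block 0 of the 10 genes passed, at a median of 0.06 and a smallest adjusted p of 0.66, and over all probes 1 was called. A slide or scan block was not run, since there was 1 slide and 1 scan. Runx2 probe A_65_P18181 gave no value at any filter that needs signal above background.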

Other observations

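The probes that were well above background on all 6 arrays and ranged over more than 1 log2 unit, 1 each of Ibsp and Chad, were set against 13905 other named genes for likeness of pattern over the 6 arrays. Ibsp A_55_P1986813 was most like Trim32, Tspyl5 and Tmod1 (Pearson r = 0.99 for each), and Chad was most like Kcnj12, Xpnpep1 and Zfp808 (r = 0.98 for each). These are descriptions over 6 points picked as the closest of many.

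Single arches stood apart in tissue markers, and the marker genes named here were picked out after their values were seen. The osteoclast-type transcript Ctsk (cathepsin K, a protease of osteoclasts and macrophages) was at 1.36, 3.33 and 1.87 in KO-marrow arches and at 2.28, 1.59 and 1.79 in WT-marrow arches. Atp6v0d2, a proton pump subunit of the same cells, was at -1.26, 1.77 and -1.67 in KO-marrow arches and at 0.38, -2.0 and -1.66 in WT-marrow arches. Both were highest on KO replicate 2, as Spp1 was. The other tested genes of the osteoclast list were not: Ocstamp was lowest on that arch (-0.82). Acp5 was highest on WT replicate 1 and Oscar on WT replicate 2. The macrophage receptor Csf1r was at 4.33, 4.21 and 3.86 in KO-marrow arches and at 4.16, 4.16 and 4.24 in WT-marrow arches. These are values of its brightest probe, which was highest on KO replicate 1. Cd68, Adgre1, Lyz2, Mrc1 and Cd14, the rest of the macrophage list, were highest on KO replicate 2 at their brightest probes. Of the 6 genes, 2 (Adgre1 and Lyz2) had KO-marrow higher without overlap, against 7.58% of all tested probes. Neither passed the adjusted test. A dimmer Csf1r probe gave 0.53 ± 0.14 (SE, adjusted p = 0.45 in limma), without overlap, and another -0.04 ± 0.17. The airway secretory gene Scgb1a1 was at -1.41, -0.91 and -1.36 in KO-marrow arches and at -1.57, -0.09 and 5.87 in WT-marrow arches, so it was high on WT replicate 3. That arch had the lowest levels of 3 of the 10 genes (Mgp, Sp7 and Msx2), where 16.9% of all tested probes were lowest. WT replicate 1 likewise had the lowest levels of 3 (Runx2, Alpl and Chad), where 15% of all tested probes were lowest. The part of airway tissue in these values was not tested. Pth1r, the parathyroid hormone receptor of bone and of smooth muscle, was at 1.80, 1.90 and 1.98 in KO-marrow arches and at 1.07, 1.69 and 1.49 in WT-marrow arches. Its groups did not overlap, with KO-marrow higher, as for 7.58% of all tested probes. The difference was 0.48 ± 0.20 (SE), with an unadjusted p of 0.0442 and an adjusted p of 0.57 in limma. Other tested osteoblast and osteocyte markers went both ways: Mepe differed by 0.33, Phex by -0.74, Sost by -0.47 and Ifitm5 by 0.003. The groups did not overlap for Mepe either, with KO-marrow higher, nor for Phex, with KO-marrow lower (6.14% of all tested probes). Pth1r was picked out after its values were seen.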
